A study of Mus musculus with 6 samples.

Results

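Fkbp5, Ndrg1, Zbtb16, Acsl3, Abcc4, Ell2, Mme and Greb1 are genes known to respond to androgen, and they were followed by name in the mesonephros of mouse embryos with a mesenchymal deletion of Gata2. The set was given by symbol and not by its values, and all 8 symbols were among the 14366 genes measured. RNA had been sequenced from 3 Gata2cKO samples (Osr2Cre+;Gata2-flox/flox) and 3 control samples (Osr2Cre+;Gata2-flox/+). All 6 came from male embryos at embryonic day 16.5, and the dissected tissue took in the region of the mesonephric tubules. Every sample carried the Cre recombinase, driven by the Osr2 promoter in mesenchyme, so controls could lose 1 copy of Gata2 where it acted, and cells outside the Cre domain kept the gene in both groups. The question behind the design is the part that Gata2 of the mesenchyme plays in forming the Wolffian duct.

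Androgen enters cells and acts through a nuclear receptor that Hsp90 and its co-chaperones hold ready. The hormone-bound receptor moves to DNA and changes the transcription of nearby genes. In male embryos testicular androgen keeps the Wolffian duct from regressing, and at the start of that process the hormone acts on the mesenchyme around the duct. Most of what is known of the 8 genes as androgen targets comes from human prostate cells. Several of them also answer other inputs: Fkbp5 and Zbtb16 are targets of the glucocorticoid receptor as well, Ndrg1 is induced by low oxygen, and Greb1 was named as an oestrogen-induced gene.

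Ndrg1 rose 1.71-fold in the Gata2cKO libraries and was the only 1 of the 5 members that could be tested to pass the test. Fkbp5 was 1.35-fold higher in Gata2cKO than in control libraries without passing, and Acsl3, Mme and Greb1 overlapped between the groups. In these bulk samples, fewer cells of a type and less RNA per cell cannot be told apart. Ell2, Abcc4 and Zbtb16 were below 1 TPM (transcript abundance corrected for gene length and library total) in all 6 libraries and were not tested. Of all 12300 genes tested, 919 passed, or 7.47%, with 5.73% higher and 1.74% lower in Gata2cKO. The test was limma on log2(TPM + 1), with p-values adjusted over all tested genes and a threshold of 0.05. On the TPM scale the order of the mean levels was Acsl3, Fkbp5, Ndrg1, Mme, Greb1, Ell2, Abcc4 and Zbtb16, from 12.0 down to 0.255 TPM. The ranges over the 6 libraries overlapped between Acsl3 and Fkbp5, between Fkbp5 and Ndrg1, between Ndrg1 and Mme, and between Abcc4 and Zbtb16. Mme lay above Greb1, Greb1 above Ell2 and Ell2 above Abcc4 in all libraries.

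**Figure D1:**
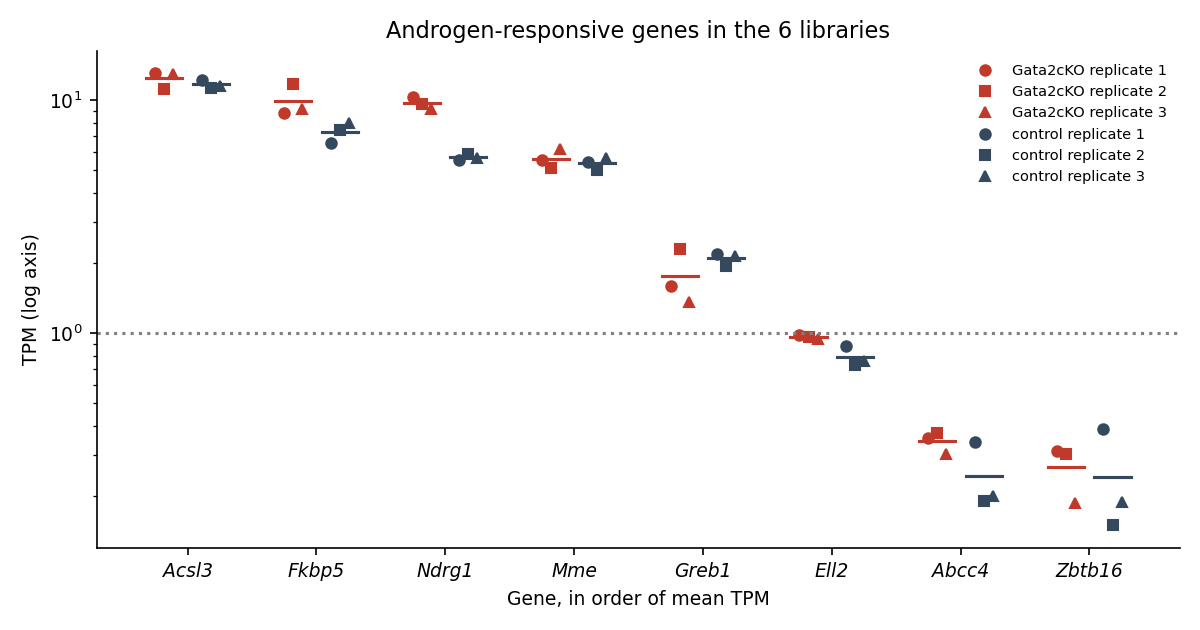
TPM of the 8 genes in each library on a log axis, with 3 Gata2cKO libraries left of 3 control libraries for each gene. Symbols mark the replicate, bars are group means and the dotted line marks 1 TPM. For Ndrg1, Fkbp5 and Ell2 every Gata2cKO value lies above every control value, from 9.16 TPM up against 5.88 TPM down for Ndrg1.

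A few facts of the libraries bear on these values. Mitochondrially encoded transcripts took 13.2% to 15.2% of the TPM in Gata2cKO libraries and 14.2% to 21.9% in controls, with control replicate 1 the highest. Of the 919 genes that passed, 705 rose and 214 fell in Gata2cKO, and the split was 487 and 400 with median-of-ratios scaling of the TPM, 578 and 342 with upper-quartile scaling, and 432 and 282 with mitochondrial genes left out of the total. The median log2 fold change of all tested genes was 0.05. Gata2 itself averaged 459 ± 61.9 TPM in Gata2cKO and 465 ± 81.2 TPM in control libraries (SD, n = 3 each). A level summed over the whole gene is no check of a floxed exon, so the groups rest on the labels. The samples are not said to be separate embryos, and p-values then measure only the spread between these samples.

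Promoter sequence is shown for Fkbp5 and Ell2, whose Gata2cKO values lay above all controls, and for the one window among the members that held a receptor hexamer, at a downstream start of Abcc4. RefSeq (GRCm38.p6) gave 10 windows for 6 of the 8 members, with Ndrg1 and Zbtb16 not among them, each from 250 bases before to 50 bases after a transcription start. Windows were searched on both strands for the androgen and glucocorticoid response element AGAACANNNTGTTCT and for its hexamer AGAACA alone. The GATA sites searched were AGATAA and TGATAA, along with AGATAG and then TGATAG. The hypoxia response core was ACGTG or else GCGTG. The hexamer is part of the full element, and the other motifs contain neither. Capitals mark hexamers and GATA sites.
Fkbp5, chr17:28486100-28486399, minus strand: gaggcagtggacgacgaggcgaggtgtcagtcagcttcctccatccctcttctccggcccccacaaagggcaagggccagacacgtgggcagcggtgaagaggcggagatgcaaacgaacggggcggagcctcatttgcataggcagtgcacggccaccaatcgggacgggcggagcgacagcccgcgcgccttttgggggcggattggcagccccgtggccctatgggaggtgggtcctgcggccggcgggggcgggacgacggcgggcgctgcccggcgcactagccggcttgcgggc
Ell2, chr13:75707234-75707533, plus strand: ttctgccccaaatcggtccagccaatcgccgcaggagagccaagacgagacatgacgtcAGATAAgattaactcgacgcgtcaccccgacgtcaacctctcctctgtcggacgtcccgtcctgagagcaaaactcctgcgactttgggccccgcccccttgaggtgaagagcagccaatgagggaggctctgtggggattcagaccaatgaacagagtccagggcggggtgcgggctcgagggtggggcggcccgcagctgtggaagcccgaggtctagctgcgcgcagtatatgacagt
Abcc4, chr14:118676882-118677181, minus strand: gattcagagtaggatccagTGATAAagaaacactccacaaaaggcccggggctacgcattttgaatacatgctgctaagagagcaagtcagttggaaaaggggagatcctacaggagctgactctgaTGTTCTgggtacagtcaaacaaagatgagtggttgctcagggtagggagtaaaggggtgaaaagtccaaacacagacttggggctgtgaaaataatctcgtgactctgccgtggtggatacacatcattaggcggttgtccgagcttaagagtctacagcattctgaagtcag
The Abcc4 window holds the hexamer read on the opposite strand, with its first base 123 bases before the start, and a GATA site that begins 231 bases before it. The Ell2 window holds a GATA site that begins 191 bases before the start, and the Fkbp5 window holds neither motif. The full element was in 0 of the 10 member windows and in 0.00913% of 32851 mouse windows. The hexamer was in 1 of 10 and in 19.0% of all windows, a GATA site in 5 of 10 and in 29.8%, and the hypoxia core in 5 of 10 and in 43.8%. Windows of 1 gene can overlap, a match is only a run of letters, and receptor sites far from the start lie outside these windows.

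The chaperone-linked member of the set is Fkbp5 (ENSMUSG00000024222, chromosome 17 from 28399094 to 28517527 in GRCm38). It encodes an immunophilin that binds Hsp90 and holds steroid receptors in a state of low hormone affinity. Fkbp5 was at 8.80, 11.7 and 9.14 TPM in Gata2cKO replicates 1, 2 and 3, against 6.56, 7.43 and 7.94 TPM in control replicates 1, 2 and 3. The groups did not overlap, and Gata2cKO replicate 2 stood above the other 5 libraries. Mean levels were 9.86 ± 1.56 TPM in Gata2cKO and 7.31 ± 0.696 TPM in control libraries (SD, n = 3 each). Fkbp5 had a log2 fold change of 0.38 (SE 0.12, 95% interval 0.10 to 0.67), and the limma adjusted p of 0.0976 missed the threshold. The authors' deposited table gives Fkbp5 a log2 fold change of 0.37 with an adjusted p of 0.0224, and in it 13.3% of genes pass, 6.69% as higher and 6.58% as lower. Without Gata2cKO replicate 2 the limma log2 fold change was 0.27.

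Fkbp4, a relative of Fkbp5 that also binds Hsp90 and favours hormone binding, averaged 349 ± 27.0 TPM in Gata2cKO and 301 ± 29.6 TPM in control libraries (SD, n = 3 each; limma adjusted p = 0.218). In TPM, Fkbp4 was thus far above Fkbp5 in both groups. Its Gata2cKO values lay only just above its control values, with a lowest of 325.0 TPM against a highest of 324.6 TPM. Gata2cKO values above all controls were found for 22.7% of all genes measured.

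Ndrg1 (ENSMUSG00000005125, chromosome 15 from 66929318 to 66969640) encodes a cytosolic protein of the N-myc downstream-regulated family that responds to stress and cell differentiation. Ndrg1 was at 10.3, 9.64 and 9.16 TPM in Gata2cKO replicates 1, 2 and 3, against 5.55, 5.88 and 5.62 TPM in control replicates 1, 2 and 3. The 3 Gata2cKO values all lay above the 3 control values, with a gap between the groups wider than the spread within either. Mean levels were 9.71 ± 0.584 TPM in Gata2cKO and 5.69 ± 0.174 TPM in control libraries (SD, n = 3 each). Its log2 fold change was 0.68 (SE 0.083, 95% interval 0.49 to 0.87, limma adjusted p = 0.00971). The authors' deposited table gives Ndrg1 a log2 fold change of 0.71 with an adjusted p of 5.14e-07. By log2 fold change Ndrg1 stood at rank 186 among the 705 genes that were higher. It passed in each of the 6 fits that left out 1 library, with log2 fold changes from 0.64 to 0.72 and a highest adjusted p of 0.0495 without Gata2cKO replicate 1. Without control replicate 1, the library with the most mitochondrial RNA, the value was 0.66 (adjusted p = 0.00755).

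Gm17035 and Gm2895, annotated on the other strand, overlap exons of Ndrg1. The sources used here do not say whether the libraries kept strand, so reads from them cannot be told apart from Ndrg1. Relatives of Ndrg1 did not pass. Ndrg2 averaged 78.7 ± 2.97 TPM in Gata2cKO and 65.6 ± 3.66 TPM in control libraries (SD, n = 3 each; limma adjusted p = 0.0832). Ndrg3 averaged 6.23 TPM in Gata2cKO and 6.05 TPM in control libraries (limma adjusted p = 0.805), and Ndrg4 averaged 4.46 TPM in Gata2cKO and 3.96 TPM in control libraries (limma adjusted p = 0.314). Ndrg2 was the most abundant of the 4 Ndrg genes in TPM.

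**Figure D2:**
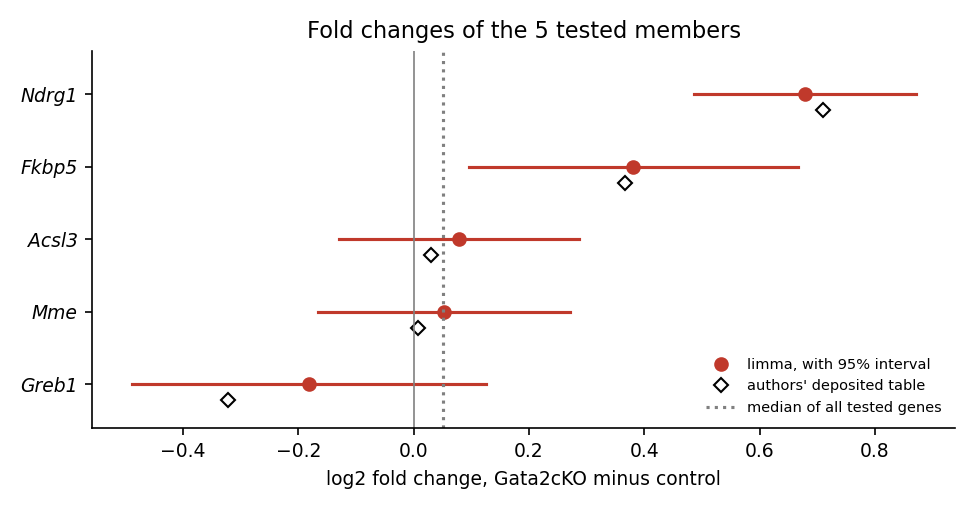
Log2 fold changes (Gata2cKO minus control) of the 5 tested genes. Filled points and lines are limma estimates with their 95% intervals, diamonds the authors' deposited values, and the dotted line the median of all tested genes at 0.05. The Ndrg1 interval starts at 0.49, that of Fkbp5 at 0.10, and those of Acsl3, Mme and Greb1 include 0.

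Greb1, Ell2 and Zbtb16 act in or near transcription. Greb1 (ENSMUSG00000036523, chromosome 12 from 16670615 to 16800886) encodes a coactivator of the oestrogen receptor. It was at 1.59, 2.29 and 1.37 TPM in Gata2cKO replicates 1, 2 and 3 and at 2.19, 1.94 and 2.14 TPM in control replicates 1, 2 and 3. Gata2cKO replicates 1 and 3 were below all controls and Gata2cKO replicate 2 was above all of them, so the groups overlapped. Greb1 had a log2 fold change of -0.18 (SE 0.13, 95% interval -0.49 to 0.13, limma adjusted p = 0.415), and -0.32 (adjusted p = 0.136) without Gata2cKO replicate 2. Exons of Greb1 are overlapped by Gm48140 on the other strand.

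Ell2 (ENSMUSG00000001542, chromosome 13 from 75706757 to 75772364) encodes an elongation factor for RNA polymerase II and a part of the super elongation complex. It was at 0.980, 0.966 and 0.945 TPM in Gata2cKO replicates 1, 2 and 3, against 0.885, 0.728 and 0.757 TPM in control replicates 1, 2 and 3. The Gata2cKO values were close together and above all controls, although every library was under the level of 1 TPM that a gene needed in at least 3 libraries to be tested. Exons of Ell2 are reached by 1700037F03Rik on the other strand and by the small nucleolar RNA gene Gm23127 on the same strand, whose reads cannot be told apart from it. The ratio of mean TPM was 1.22. Fitted with no filter, Ell2 had a log2 fold change of 0.13 (SE 0.054, limma adjusted p = 0.174), while 0.23 with an adjusted p of 0.560 stands in the authors' deposited table. Of 8 tested genes of the super elongation complex 0 passed in limma, against 1 at an unadjusted p under 0.05, where 27.4% of all tested genes lay, and 1 of 9 in the authors' deposited table. Cdk9, its kinase and its most abundant tested gene, averaged 134 TPM in Gata2cKO and 154 TPM in control libraries (limma adjusted p = 0.226).

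Zbtb16 (ENSMUSG00000066687, chromosome 9 from 48654297 to 48836222) encodes PLZF, a zinc-finger repressor. It was at 0.313, 0.304 and 0.187 TPM in Gata2cKO replicates 1, 2 and 3 and at 0.388, 0.150 and 0.188 TPM in control replicates 1, 2 and 3. Control replicate 1 was the highest of all 6 libraries and the groups overlapped. The ratio of mean TPM was 1.11, and with 1 library left out it ranged from 0.930 without control replicate 2 to 1.58 without control replicate 1. It was also under 1 without control replicate 3, at 0.995. For Zbtb16 the authors' deposited table gives a log2 fold change of 0.10 with an adjusted p of 0.899.

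Acsl3, Abcc4 and Mme serve in lipid handling, export and peptide breakdown. Acsl3 (ENSMUSG00000032883, chromosome 1 from 78657825 to 78707743) encodes a ligase that activates long-chain fatty acids on the endoplasmic reticulum and on lipid droplets. It was at 13.0, 11.2 and 12.9 TPM in Gata2cKO replicates 1, 2 and 3 and at 12.2, 11.3 and 11.5 TPM in control replicates 1, 2 and 3. The lowest value of all, in Gata2cKO replicate 2, was below every control. Acsl3 had a log2 fold change of 0.08 (SE 0.089, 95% interval -0.13 to 0.29, limma adjusted p = 0.609). Utp14b shares exon sequence with Acsl3 on the same strand, and the split of reads between them is uncertain. Utp14b averaged 8.16 ± 1.24 TPM in Gata2cKO and 8.86 ± 3.91 TPM in control libraries (SD, n = 3 each), with 13.3 TPM in control replicate 1.

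Abcc4 (ENSMUSG00000032849, chromosome 14 from 118482692 to 118706219) encodes an ATP-driven exporter of organic anions, cyclic nucleotides and prostaglandins. It was at 0.357, 0.375 and 0.302 TPM in Gata2cKO replicates 1, 2 and 3, against 0.341, 0.191 and 0.200 TPM in control replicates 1, 2 and 3. Control replicate 1 lay among the Gata2cKO libraries, and the other controls lay below all of them. The ratio of mean TPM was 1.41, and 1.76 without control replicate 1. With no filter Abcc4 had a log2 fold change of 0.11 (SE 0.057, limma adjusted p = 0.261), on a scale where the pseudocount of 1 exceeds the level itself.

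Mme (ENSMUSG00000027820, chromosome 3 from 63241537 to 63386030) encodes neprilysin, a zinc peptidase of the cell surface. It was at 5.54, 5.11 and 6.15 TPM in Gata2cKO replicates 1, 2 and 3 and at 5.41, 5.02 and 5.63 TPM in control replicates 1, 2 and 3. The groups overlapped, with Gata2cKO replicate 3 the highest library. Mme had a log2 fold change of 0.05 (SE 0.094, 95% interval -0.17 to 0.27, limma adjusted p = 0.751), equal to the median of all tested genes at this rounding.

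Counted over all 8 genes with no test, 3 had Gata2cKO values entirely above the control values and 0 entirely below. That arrangement above controls was found for 22.7% of all genes measured. Among tested genes 33.9% had groups that did not overlap, 23.4% with Gata2cKO above and 10.5% with Gata2cKO below. The 3 were Ndrg1, Fkbp5 and Ell2. The count above controls was 3 or 4 when any 1 library was left out, with Abcc4 joining without control replicate 1 and without Gata2cKO replicate 3. Over the same removals 25.7% to 32.3% of all genes measured lay above controls. Without Gata2cKO replicate 2 there were 4 above, and Greb1 lay below. Among tested members 1 of 5 passed and was higher, beside 5.73% of all tested genes that were higher. The median log2 fold change of the 5 was 0.08.

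**Figure D3:**
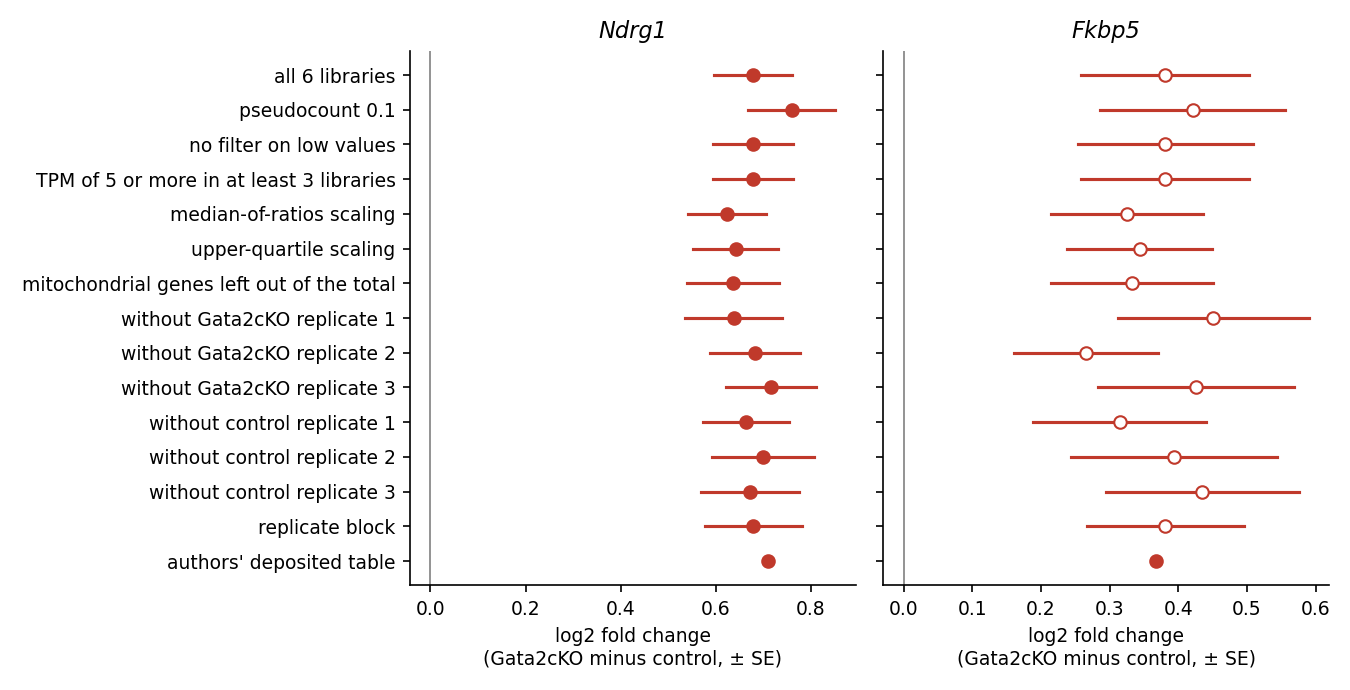
Log2 fold change (Gata2cKO minus control) of Ndrg1 and Fkbp5 under each way of processing, with lines of 1 SE. Filled points had an adjusted p under 0.05 and open points did not. Ndrg1 was filled throughout, between 0.62 and 0.76, and Fkbp5 was filled in the authors' deposited table alone, at 0.37.

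Of 13 tested genes in the list headed by receptor chaperones and coregulators, 1 rose and 0 fell. That is 7.69% higher, close to the 5.73% of all tested genes. The median log2 fold change of the 13 was -0.05, beside 0.05 over all tested genes. The authors' deposited table has 1 of the 13 higher and 1 lower, beside 6.69% and 6.58% of all its genes. The gene that rose was Ncoa4, a receptor coactivator that also carries ferritin to lysosomes. Ncoa4 averaged 40.9 ± 0.450 TPM in Gata2cKO and 28.5 ± 2.14 TPM in control libraries (SD, n = 3 each; log2 fold change 0.51, limma adjusted p = 0.0170). It lost its call in 4 of the 6 fits with 1 library left out, with a highest adjusted p of 0.0777 without Gata2cKO replicate 1.

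In the list of other steroid receptors 1 of 3 tested genes rose and 0 fell, beside 5.73% of all tested genes higher and 1.74% lower. Pgr, the progesterone receptor, averaged 1.57 ± 0.235 TPM in Gata2cKO and 0.691 ± 0.0608 TPM in control libraries (SD, n = 3 each; log2 fold change 0.60, limma adjusted p = 0.0184). Its control libraries all lay under 1 TPM, so Pgr was tested only because its Gata2cKO libraries reached that level, and of the 2 other receptors tested 0 passed in limma. Fitted with no filter, Pgr had an adjusted p of 0.0180. Pgr lost its call in 4 of the 6 removals, with a highest adjusted p of 0.0900 without Gata2cKO replicate 1. Nr3c1, the glucocorticoid receptor, was at 9.29, 9.53 and 8.89 TPM in Gata2cKO libraries, against 7.68, 7.96 and 7.70 TPM in controls. The groups of Nr3c1 did not overlap, yet its log2 fold change of 0.22 did not pass (limma adjusted p = 0.116).

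Among 37 other tested genes known to respond to androgen 7 rose and 0 fell, or 18.9% beside 5.73% of all tested genes that were higher. Their median log2 fold change was 0.20, beside 0.05 over all tested genes. The list was chosen with earlier results of these data known, so it was not tested as a set. The authors' deposited table, which covers 41 genes of the list, has 9 higher and 1 lower, beside 6.69% and 6.58% of all its genes. Igf1, a growth factor of mesenchyme, was at 38.9, 40.3 and 40.02 TPM in Gata2cKO libraries, against 22.8, 23.4 and 22.6 TPM in controls (log2 fold change 0.77, SE 0.070, limma adjusted p = 0.00375). All 3 Gata2cKO libraries of Igf1 were well above the controls, and it passed in each of the 6 removals. Scd1, which puts a double bond into fatty acids, was at 18.5, 18.6 and 15.8 TPM in Gata2cKO libraries, against 10.4, 11.6 and 10.9 TPM in controls (limma adjusted p = 0.0132, 0.0679 without Gata2cKO replicate 1). Aldh1a3, which makes retinoic acid, averaged 13.0 ± 0.748 TPM in Gata2cKO and 7.37 ± 1.38 TPM in control libraries (SD, n = 3 each; limma adjusted p = 0.0178, 0.0728 without Gata2cKO replicate 3). Akap12, Hpgd and Steap4, named with their values known, were among the remaining 4. Steap4, like Pgr, was under 1 TPM in every control library, and without it 6 of 36 rose, or 16.7%. Its adjusted p was 0.0375, but 0.141 in the authors' deposited table. With 1 library left out the list had 1 to 8 genes that rose and 0 that fell. It had 1 without Gata2cKO replicate 1 or without Gata2cKO replicate 2, 2 without control replicate 2 or 3, and 3 without Gata2cKO replicate 3. Genes called higher over the whole table, 705 with all libraries, were 87, 148, 198, 223 and 160 in these fits, in that order. The list had 5 with median-of-ratios scaling, where 487 of all tested genes were higher.

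Genes that answer the other inputs of the members were counted in the same way. Of 16 tested genes induced by low oxygen, which also induces Ndrg1, 1 rose and 0 fell, with a median log2 fold change of 0.18. That is 6.25% higher, close to the 5.73% of all tested genes, and without control replicate 1 there were 1 higher and 1 lower. The gene that rose was Egln3, a prolyl hydroxylase that marks hypoxia-inducible factors for removal, at 10.6 ± 0.916 TPM in Gata2cKO and 6.66 ± 0.377 TPM in control libraries (SD, n = 3 each; limma adjusted p = 0.0150, 0.0631 without Gata2cKO replicate 1). The others stayed short of the threshold. At an unadjusted limma p under 0.05 the list had 3 higher, Egln3 among them, and 0 lower, beside 27.4% of all tested genes in either direction. Car9 averaged 11.2 TPM in Gata2cKO and 7.52 TPM in control libraries, without overlap (limma adjusted p = 0.131). Vegfa averaged 101 TPM in Gata2cKO and 110 TPM in control libraries, with overlap. Car9 and Vegfa were picked with their values known. Of 15 tested glucocorticoid-responsive genes 2 rose and 0 fell, with a median of 0.11. Angptl4, an inhibitor of lipoprotein lipase, averaged 68.8 ± 5.03 TPM in Gata2cKO and 41.9 ± 4.11 TPM in control libraries (SD, n = 3 each; limma adjusted p = 0.0122, 0.0526 without Gata2cKO replicate 3). Errfi1, a brake on the EGF receptor, averaged 33.4 ± 5.53 TPM in Gata2cKO and 21.7 ± 1.80 TPM in control libraries (SD, n = 3 each; limma adjusted p = 0.0375, 0.133 without Gata2cKO replicate 1). Tsc22d3 and Per1, well-known targets of the glucocorticoid receptor picked with their values known, did not pass (limma adjusted p = 0.191 and 0.726). Tsc22d3 averaged 14.3 TPM in Gata2cKO and 11.5 TPM in control libraries without overlap, and Per1 overlapped. At an unadjusted limma p under 0.05 the glucocorticoid-responsive list had 5 higher and 1 lower, beside 27.4% of all tested genes in either direction. Of 9 tested oestrogen-responsive genes 0 passed in limma, with 4 at an unadjusted p under 0.05 beside 27.4% of all tested genes, 2 that pass in the authors' deposited table and a median of 0.08. The most abundant, Igfbp4, averaged 979 TPM in Gata2cKO and 1018 TPM in control libraries. Of 13 tested relatives of the members 0 passed in limma, with 3 at an unadjusted p under 0.05 beside the same 27.4%, 0 that pass in the authors' deposited table and a median of 0.14.

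**Figure D4:**
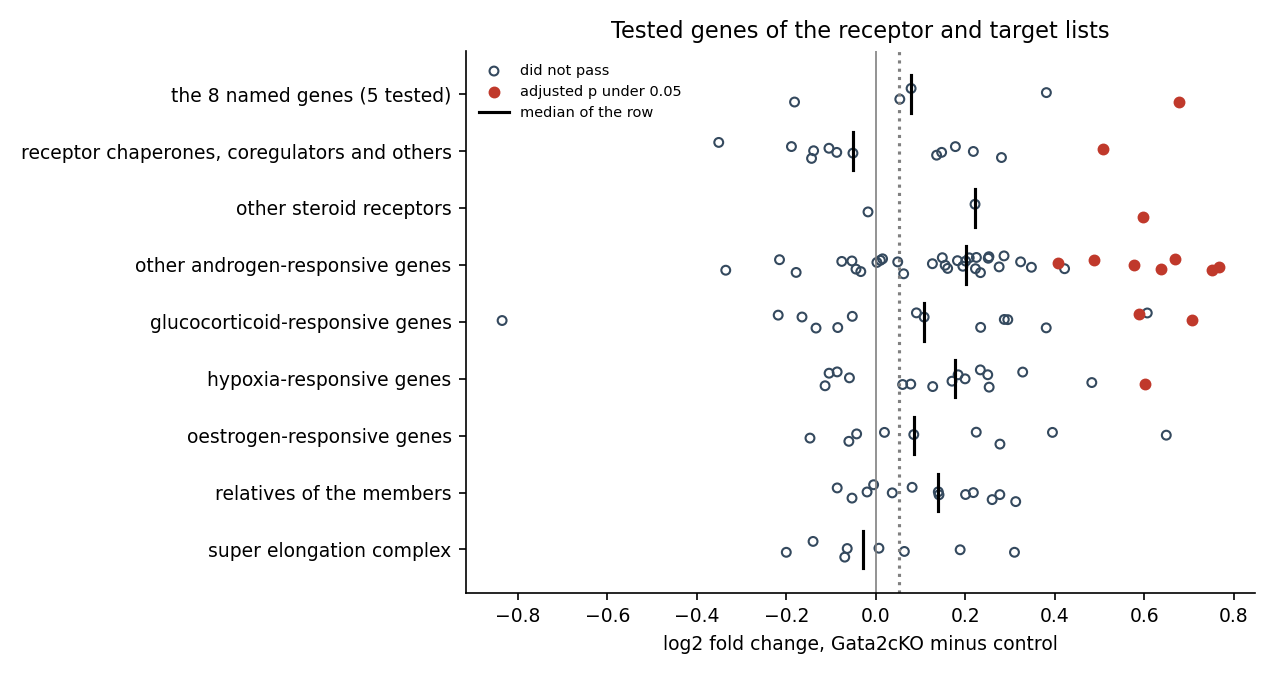
Log2 fold change (Gata2cKO minus control) of each tested gene in the lists, with 1 row for each list and the 8 named genes on top. Red points had an adjusted p under 0.05, black bars are medians of the rows and the dotted line is the median of all tested genes. The red points all lie to the right of 0, 7 of them among the other androgen-responsive genes.

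Each tested member was set beside the gene whose log2(TPM + 1) followed it most closely over the 6 libraries. These were Aar2 for Ndrg1 (Pearson r 0.998), Aoc3 for Fkbp5 (0.995), Wdr5b for Acsl3 (0.993), Baz1b for Greb1 (0.993) and Gipr for Mme (0.959). The 6 points share the split into groups and the libraries, and 445 tested genes had an r above 0.95 with Ndrg1, against 196 with Fkbp5 and 2 with Mme.

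Markers of cell types in the dissected tissue moved in several lists beside Ndrg1. None of the 90 marker genes measured was at 0 in any library. Summed markers of the duct epithelium were 1549 to 1603 TPM in Gata2cKO and 1195 to 1355 TPM in control libraries, where 3 of 13 tested genes rose. In this list Lhx1 went the other way without passing, at 16.8 TPM in Gata2cKO and 22.3 TPM in control libraries (limma adjusted p = 0.212). The groups overlapped for Lhx1, Pax2 and Pax8. Endothelial markers summed to 457 to 564 TPM in Gata2cKO and 325 to 429 TPM in control libraries, and 2 of 8 rose. Mast cell markers summed to 277 to 301 TPM in Gata2cKO and 101 to 142 TPM in control libraries, and 3 of 6 rose. Kit, of that list, went the other way without passing, at 2.25 TPM in Gata2cKO and 2.90 TPM in control libraries (limma adjusted p = 0.119). Markers of macrophages and neutrophils summed to 445 to 562 TPM in Gata2cKO and 356 to 416 TPM in control libraries, and 3 of 9 rose. All of these sums were higher in Gata2cKO without overlap, and so were 3 more. For single genes, 5.73% of all tested genes passed as higher and 1.74% as lower. Of all genes measured, 22.7% lay entirely above controls. Mesothelial markers summed to 572 to 668 TPM in Gata2cKO and 353 to 456 TPM in control libraries, and 4 of 6 rose, including Krt19, which is also in the epithelial list. Those of nephron tubules and glomeruli summed to 138 to 140 TPM in Gata2cKO and 76.6 to 83.5 TPM in control libraries, and 4 of 4 rose. Those of steroidogenic cells summed to 6.86 to 7.48 TPM in Gata2cKO and 6.04 to 6.77 TPM in control libraries, and the 1 tested gene did not pass. Summed smooth muscle markers were lower, at 779 to 858 TPM in Gata2cKO and 1006 to 1116 TPM in control libraries, where 3 of 7 fell. Mesenchymal markers summed to 7309 to 9408 TPM in Gata2cKO and 6629.8 to 8522 TPM in control libraries, where 3 of 11 fell and the sums overlapped. Of the same list, Lum, Dcn and Prrx1 lay entirely above their controls without passing. Sums also overlapped for erythroid cells, Sertoli and germ cells, neurons and glia (1 of 4 rose) and adipocytes. The part of these markers in the level of Ndrg1 was not tested.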

How the data were processed

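RNA-seq of 6 mesonephros samples was deposited by the authors as 1 table of 14366 genes with a TPM value per library, taken as TPM from the values, since library sums lie between 997351 and 998844. Beside them, the authors deposited a log2 fold change (Gata2cKO over control), a p-value and an adjusted p. Per the submitters' processing notes, STAR 2.7.11a, DESeq2, DESeq and GRCm38 were in use, in roles that are not stated. TPM keeps no read depth, so no counting interval is given and the error is the spread between samples. Columns were assigned through the library names in the labels.

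A gene was tested where at least 3 libraries reached 1 TPM, true of 12300 genes and 5 of the 8 members. Group means of log2(TPM + 1) were compared by limma 3.58.1 under R 4.3.3 (trended variance, two-sided, Benjamini-Hochberg over all tested genes, threshold 0.05). Log2 fold changes are on that scale, which understates changes of low genes, while ratios are of mean TPM. The code was tested on simulated data. Positions and overlaps are from GENCODE release M21 (GRCm38), matched by gene identifier for 14345 genes, and promoter windows are from RefSeq. Summaries were made in Python 3.11.15.

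The members, the 8 gene lists and the 13 marker lists were chosen with earlier results of these data known, so no list was tested as a set. Named genes were the members, Nr3c1, Gata2, up to 3 genes of each list and direction that passed with the smallest adjusted p, or the most abundant tested gene where none passed, and the gene nearest to each member. Some genes so chosen are not reported here but were kept in every count. No pairing of the samples is stated in the labels, and a check by replicate number neither showed nor excluded one. Alternatives were another pseudocount, other filters, other scalings, each library left out, a block for replicate number and the authors' table.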

Additional observations from a re-analysis of the deposited data

How the results depend on the processing

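Ndrg1 kept its direction and stayed past the threshold in all 14 alternatives, and Acsl3, Mme and Greb1 stayed short of it in each one that gave a value. Fkbp5 passed in the authors' deposited table alone (log2 fold change 0.37), which brought the members called to 2. With 1 library left out, Mme ranged from -0.0060 (without Gata2cKO replicate 3) to 0.11 in log2 fold change. Genes called over the whole table ranged from 116 without Gata2cKO replicate 1 to 1539 without control replicate 1, against 919 with all libraries and 1906 in the authors' deposited table. Listed genes called, 12 with all libraries, ranged from 2 to 18 over the removals and were 19 in the authors' deposited table. The cause was not tested. The minimum of 5 TPM took Greb1 out of the test and gave no value for it.

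The deviations of same-numbered samples from their group means correlated at 0.245, -0.0731 and 0.0384 across tested genes. Those of differently numbered samples ran from -0.277 to 0.215. Deviations within a group cancel out, which ties these values to each other, so a pairing by number was neither shown nor excluded. With the replicate number as a block 774 genes, 1 member (Ndrg1, adjusted p = 0.0164) and 12 listed genes (11 higher, 1 lower) were called. Ratios for members below the filter with 1 library left out, and list shares without genes under 1 TPM in every library of 1 group, were added after the data were seen. Depth is unknown, and at under 1 TPM the levels of Ell2, Abcc4 and Zbtb16 are the least certain.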

Other observations

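Zfp36, picked with its values known from the glucocorticoid-responsive list, encodes an RNA-binding protein that shortens the life of cytokine messages. It was at 49.2, 55.2 and 82.6 TPM in Gata2cKO libraries and at 61.6, 142 and 149 TPM in controls. Control replicate 1 stood apart from the other controls and within the Gata2cKO range, and the gene did not pass (log2 fold change -0.84, limma adjusted p = 0.167). It passed without control replicate 1 (-1.24, adjusted p = 0.0111) and with the replicate number as a block (adjusted p = 0.0389), and over the other limma settings its adjusted p stayed above 0.05, up to 0.384.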
